A study of Rattus norvegicus with 4 samples.

Results

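Peptides shown on MHC class I are made and loaded by a chain of 6 gene products that were followed here in rat hepatic stellate cells: the light chain beta-2-microglobulin (B2m), the peptide transporter subunits Tap1 and Tap2, the loading factor tapasin (Tapbp), and the immunoproteasome subunits Psmb8 and Psmb9. They were taken by the gene names of the array, which held 9 probes for the 6 genes among 41012 gene probes and 35561 gene names. The 6 genes were chosen by their measured log ratios on these same arrays, so their ratios are given as a description, without a test. All 6 were measured, and each of the 9 probes was well above background in both dyes on all 4 arrays, with 0 saturated spots.

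Hepatic stellate cells wrap the liver sinusoids, store vitamin A and lay down matrix when the liver is injured; endoglin assists the signalling receptors that bind TGF-beta and BMP ligands. The study compared cells given an siRNA against endoglin, or left untreated, with cells given a control siRNA. Cy5 carried the endoglin siRNA or the untreated RNA and Cy3 the control siRNA RNA on all 4 arrays, with 2 arrays per group and no dye swap. In each group 1 array held RNA from the cells of 1 animal and 1 array RNA from 3 animals, pooled, with each animal's cells of the pool transfected separately where siRNA was given. The sources used here give no strain, age, sex, siRNA sequence or time of harvest. They do not say whether the pools included the single animal or whether arrays shared a control RNA. Nothing marks the arrays of a group as separate cultures beyond their RNA source, so p-values measure the spread between these arrays. A dye effect cannot be told apart from a difference from control siRNA cells; it is shared by both groups in the difference between endoglin siRNA and untreated cells. As these are bulk cultures, fewer cells of a type and less RNA per cell cannot be told apart.

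In every nucleated cell the proteasome cuts proteins into peptides, and under interferon-gamma Psmb8 and Psmb9 replace constitutive catalytic subunits in it. The Tap1-Tap2 pump carries the peptides into the endoplasmic reticulum, where tapasin holds the pump and an empty class I molecule together until a peptide is bound. The class I molecule is a heavy chain, named RT1 in the rat, paired with B2m, and it shows the peptide to CD8 T cells. Interferons and NF-kB are the textbook inducers of these genes, acting through interferon-stimulated response elements, gamma-activated sites and kappa B sites in their promoters.

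The stretches before the gene starts are shown for B2m, Tap1, Tap2 and Tapbp, the 4 of the 6 genes in which the core of an interferon-stimulated element was matched. They come from RefSeq (build GRCr8, 6 of 6 genes matched) and are the 250 bases that end just before the start given in that promoter table, read 5′ to 3′ along the gene: B2m chr3:129549080-129549329 (plus strand), Tap1 chr20:4668544-4668793 (minus strand), Tap2 chr20:4652297-4652546 (minus strand) and Tapbp chr20:4967878-4968127 (minus strand). Capitals mark matches, on either strand, to the core of the interferon-stimulated element (GAAANNGAA) or to a kappa B-like motif (GGANTNNCC).
B2m: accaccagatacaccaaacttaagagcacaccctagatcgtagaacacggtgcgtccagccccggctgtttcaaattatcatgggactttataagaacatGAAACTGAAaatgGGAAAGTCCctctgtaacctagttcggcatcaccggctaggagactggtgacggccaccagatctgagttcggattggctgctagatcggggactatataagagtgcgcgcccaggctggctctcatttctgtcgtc
Tap1: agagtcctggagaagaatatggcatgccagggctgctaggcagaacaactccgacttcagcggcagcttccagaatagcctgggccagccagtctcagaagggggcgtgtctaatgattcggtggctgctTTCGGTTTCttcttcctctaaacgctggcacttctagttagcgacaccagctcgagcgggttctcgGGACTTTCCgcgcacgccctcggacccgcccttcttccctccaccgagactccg
Tap2: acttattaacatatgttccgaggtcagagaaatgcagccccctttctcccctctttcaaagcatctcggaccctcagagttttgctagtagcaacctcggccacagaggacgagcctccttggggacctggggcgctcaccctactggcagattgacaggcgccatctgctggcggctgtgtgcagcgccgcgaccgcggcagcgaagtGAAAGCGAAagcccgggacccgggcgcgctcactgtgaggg
Tapbp: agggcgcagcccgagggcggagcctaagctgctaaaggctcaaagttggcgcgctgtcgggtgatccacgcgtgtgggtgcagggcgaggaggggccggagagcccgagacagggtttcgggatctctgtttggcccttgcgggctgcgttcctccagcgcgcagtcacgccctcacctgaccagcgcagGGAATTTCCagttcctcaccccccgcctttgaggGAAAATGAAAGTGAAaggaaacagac

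The interferon element core was found in 4 of the 6 stretches, against 8.12% of the 33469 promoters in the table. Counted from the start, it lay at -150 to -142 in B2m, -120 to -112 in Tap1 and -41 to -33 in Tap2, while Tapbp held 2 overlapping copies, at -26 to -18 and -20 to -12. In Psmb8 a match ran from -3 to 6, across the start, and so lies outside the stretch searched. The kappa B-like motif was found in B2m, Tap1 and Tapbp (10.7% of all promoters), and the gamma-activated site TTCNNNGAA in Psmb8 alone of the 6 (7.67%). Of the shorter motifs, the core TGACG of the cyclic AMP response element lay in B2m and Psmb9 (18.2%), the CCAAT box in B2m and Psmb8 (34.0%), and the GC box GGGCGG in Tap1, Tapbp and Psmb9 (30.5%). A match is a description of the letters, and none was tested against the ratios.

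**Figure D1:**
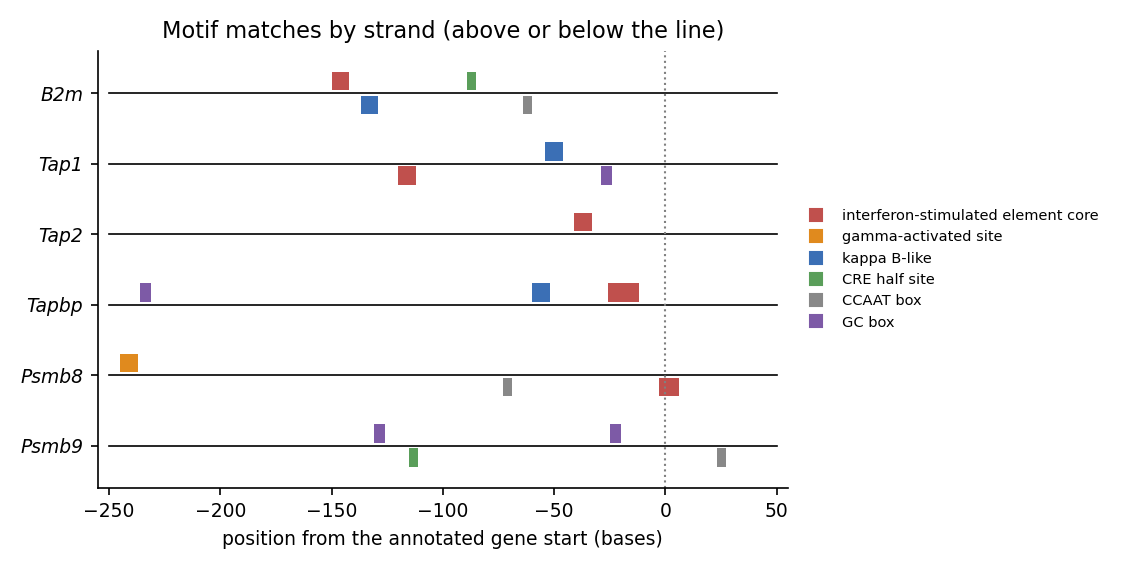
Motif matches (coloured boxes, above the line on the gene's strand and below it on the other strand) by position in bases from the annotated start of the 6 genes. The interferon element core lies between -150 and -12 in B2m, Tap1, Tap2 and Tapbp, crosses the start in Psmb8, and was not matched in Psmb9.

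5 of the 6 genes lie on chromosome 20. Tap2, Psmb8, Tap1 and Psmb9 follow one another in that order among the protein-coding genes of the RefSeq table, and Tap1 and Psmb9 point away from each other from starts 457 bases apart. Tapbp lies elsewhere on the same chromosome and B2m on chromosome 3.

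The targeted gene was lower in both libraries labelled as endoglin siRNA. The endoglin (Eng) log2 ratio to control siRNA cells was -3.08 with 1 animal and -1.72 in the pool, against -0.36 and -0.42 in untreated cells, and its fall against control siRNA cells passed the test (mean -2.40, SE 0.26, n = 2 arrays, adjusted p = 0.0051, limma with Benjamini-Hochberg adjustment over 25534 genes). The Eng difference between endoglin siRNA and untreated cells was -2.73 with 1 animal and -1.31 in the pools (mean -2.02). That difference was not called (adjusted p = 0.178, limma). All log2 ratios here are Cy5 over Cy3, following the dyes in the labels. A positive value is thus higher than in control siRNA cells. The deposited value table has the opposite sign on both untreated arrays. Of 13 listed stellate cell markers with a probe, 12 to 13 were well above background in Cy5 on each array; in Cy3 Gfap was so on the untreated pool alone, and no probe carries the name Acta2. The array of the untreated pool stood apart in both dyes. In Cy5 93.3% of its gene spots exceeded background, against 65.7% to 70.2% on the other arrays. In Cy3, which carried control siRNA RNA, 87.2% did, against 61.9% to 62.3%.

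B2m gave the highest ratios of the 6 genes on every array. Its brightest probe (A_44_P214040, RefSeq transcript NM_012512) had net signals in Cy5 and Cy3 of 180900 and 37170 in untreated cells of 1 animal, 271800 and 34050 in the untreated pool, 263700 and 29550 in endoglin siRNA cells of 1 animal, and 281900 and 38590 in the endoglin siRNA pool. After normalization the log2 ratio was 0.49 and 1.05 in untreated cells and 1.25 and 0.87 in endoglin siRNA cells (1 animal, then pool). Both groups thus lay above control siRNA cells and overlapped each other, with means of 0.77 and 1.06 (SE 0.14, n = 2 arrays each). The difference between endoglin siRNA and untreated cells was 0.76 with 1 animal and -0.19 in the pools, a change of sign between the RNA sources.

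The other B2m probes gave lower ratios. The probe A_43_P11442, of the same transcript and spotted 10 times on each array, read 0.22 ± 0.08 and 0.73 ± 0.06 in untreated cells and 0.95 ± 0.09 and 0.64 ± 0.10 in endoglin siRNA cells (1 animal, then pool; SD over 9, 10, 7 and 9 usable spots). The spots of the single animal did not overlap between the groups, from 0.11 to 0.31 in untreated and from 0.83 to 1.07 in endoglin siRNA cells, whereas those of the pools did, from 0.61 to 0.80 and from 0.52 to 0.82. Those SDs are the error within an array; the arrays of the untreated group differed by several times as much.

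The remaining probes carry the expressed sequence tag CF111193. A_44_P535612 read 0.29 and 0.41 in untreated cells and 1.01 and 0.61 in endoglin siRNA cells. A_44_P122632, with the lowest signals of the 4 probes, read 0.11 and 0.04 in untreated cells and 0.63 and 0.30 in endoglin siRNA cells. On these probes endoglin siRNA cells lay above untreated cells in both RNA sources, by 0.72 and 0.20 and by 0.51 and 0.25, while on the probes of NM_012512 the pools gave the opposite sign (-0.19 and -0.09). The 4 probes thus differ in whether the groups overlap.

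**Figure D2:**
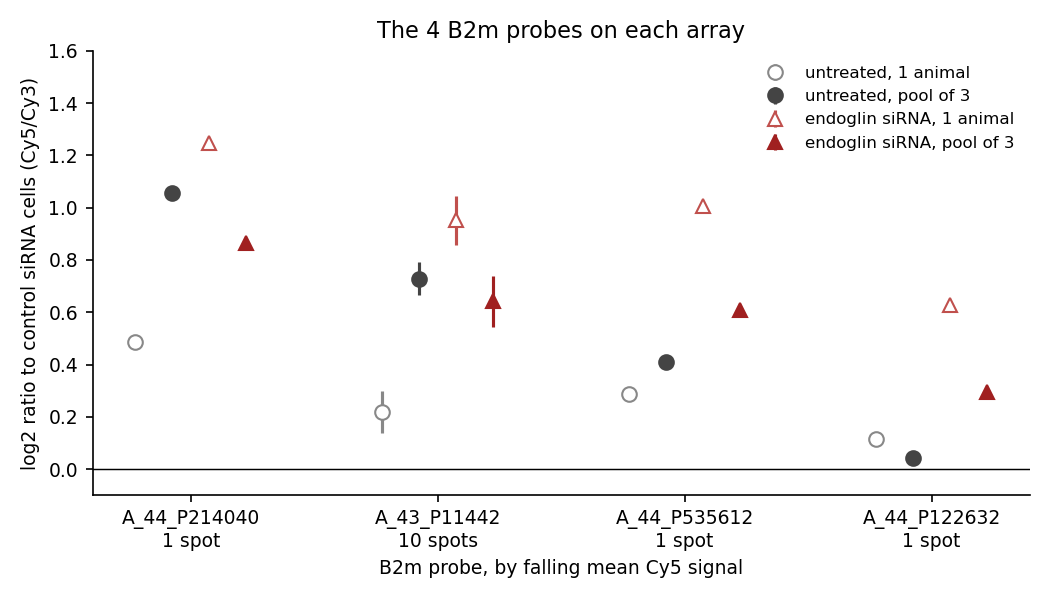
Log2 ratio to control siRNA cells (vertical axis) of the 4 B2m probes, ordered by falling mean Cy5 signal, on each of the 4 arrays; bars on the probe spotted 10 times are the SD over its usable spots, and the other probes have 1 spot. Endoglin siRNA cells of 1 animal (open triangles) are highest on every probe, and the ratios of all arrays are lowest on the dimmest probe, between 0.04 and 0.63.

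The B2m spot is among the brightest of the array, in place 49 of 25534 genes by brightness, which is a property of the spot and no transcript level. The 100 brightest genes, a set looked at after the B2m values were seen, had median log2 ratios above 0 on every array: 0.43 and 0.55 in untreated and 0.35 and 0.26 in endoglin siRNA cells, with 97, 97, 93 and 81 of the 100 above 0. Their upper 10% began at 0.79 and 1.03 in untreated and at 0.85 and 0.77 in endoglin siRNA cells, and B2m lay above that limit on 3 of the 4 arrays but not in untreated cells of 1 animal. The part of spot brightness in the B2m ratios was not tested.

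The immunoproteasome subunits had small ratios. Psmb9 (probe A_44_P301963), which takes the place of a constitutive beta subunit, had log2 ratios to control siRNA cells of -0.01 and -0.17 in untreated cells and 0.29 and 0.15 in endoglin siRNA cells (1 animal, then pool). Endoglin siRNA cells lay above untreated cells by 0.29 and 0.31, the most even difference of the 6 genes between the RNA sources, with a mean of 0.30 (SE 0.10, 1.23-fold). Psmb8 (probe A_44_P182020) read -0.06 and -0.32 in untreated and -0.18 and -0.04 in endoglin siRNA cells, so its groups overlapped and its difference had opposite signs, -0.12 with 1 animal and 0.28 in the pools.

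The transporter genes were lower in untreated cells. Tap1 (probe A_44_P451916) read -0.16 and -0.50 in untreated and -0.04 and -0.06 in endoglin siRNA cells, and Tap2 (probe A_42_P797381) -0.71 and -0.31 in untreated and 0.04 and -0.06 in endoglin siRNA cells. For both genes the untreated ratios lay below 0 and below both endoglin siRNA ratios, which lay between -0.06 and 0.04. The difference of endoglin siRNA from untreated cells was 0.12 and 0.44 for Tap1 and 0.74 and 0.26 for Tap2, the latter with the highest mean of the 6 genes, 0.50 (SE 0.13, 1.41-fold). The larger value came from the pools for Tap1 and from the single animal for Tap2.

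Tapbp (probe A_42_P698972) was below control siRNA cells on every array, at -0.37 and -0.45 in untreated and -0.35 and -0.22 in endoglin siRNA cells; with median centring in place of loess its endoglin siRNA mean was 0.78, where the median of all genes was 0.32. The means were -0.41 and -0.28 (SE 0.07, 1.32-fold and 1.22-fold lower), and endoglin siRNA cells lay above untreated cells by 0.02 and 0.23. On all arrays its ratio was the lowest or the next to lowest of the 6.

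**Figure D3:**
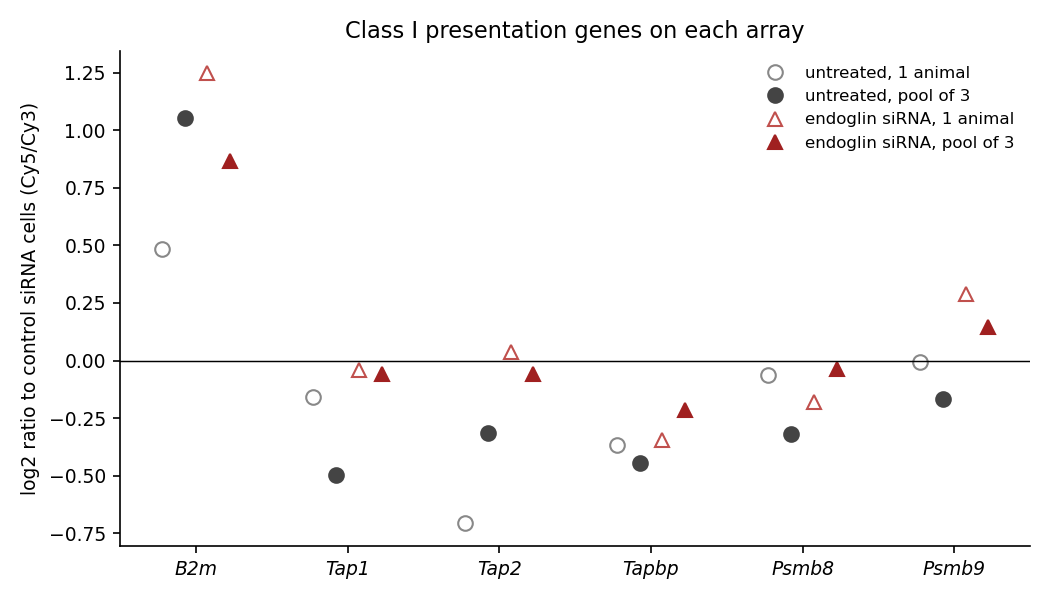
Log2 ratio to control siRNA cells (vertical axis) of the brightest probe of each of the 6 genes on the 4 arrays; circles are untreated and triangles endoglin siRNA cells, open for 1 animal and filled for the pool. B2m lies between 0.49 and 1.25 and all other genes between -0.71 and 0.29. The circles of Tap1, Tap2, Tapbp and Psmb9 lie below both of their triangles, a separation that was not counted over all genes.

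Across the 6 genes the median log2 ratio was -0.26 in untreated and -0.03 in endoglin siRNA cells, against medians over all genes of 0.0011 and 0.02. In untreated cells 5 of 6 were below 0, as were 49.5% of all genes. The difference between endoglin siRNA and untreated cells had a median of 0.28 (0.02 over all genes). It was above 0 in the mean for all 6 (58.6% of all genes) and in both RNA sources for 4 of the 6 (37.2% of all genes). The choice of the 6 by these ratios leaves these counts without weight. The difference is that of the ratios to control siRNA cells and shares their arrays, so it adds no measurement of its own. Of the 6 genes, 2 (B2m and Tapbp) were among the 8.12% of all genes called between endoglin siRNA and control siRNA cells, a count that the choice of the genes leaves without weight.

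By Euclidean distance over the log2 ratios of the 4 arrays, B2m lay 1.78 to 2.59 from the other 5 genes, which lay 0.25 (Tap1 and Psmb8) to 0.86 (Tapbp and Psmb9) from one another. Among the genes nearest to B2m were Rps6, a ribosomal protein gene (distance 0.26), and Tceal9 (0.47), in places 21 and 84 by spot brightness. Nearest to Tap1 were Cnp (0.08), Igfbp6 (0.08) and Cst6 (0.10), and among those nearest to Tap2 were Smurf1 (0.16) and Bco1 (0.35). Tapbp lay nearest to Cdk9 (0.06), Cct7 (0.07) and B4galt3 (0.08), Psmb8 to Ap1s1 (0.04), Hdac6 (0.05) and Rcc2 (0.06), and Psmb9 to Sos2 (0.04), Cbarp (0.06) and Secisbp2 (0.06). With only 4 arrays many genes have a close neighbour by this measure, and no nearest gene was itself one of the 6.

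Around these genes, the heavy chains with which B2m pairs were followed as all RT1 names outside class II: 24 names with 33 probes, of which 21 were tested. RT1 genes are related copies, some of them near-identical, whose probes may bind one another's transcripts. Without probe sequences this could not be examined, so the values cannot be taken as independent. RT1-Ke4 is a zinc transporter gene (Slc39a7) that carries an RT1 name, and it was left out after its values were seen, which leaves 20 names. In untreated cells the heavy chains were below control siRNA cells, from -0.31 to -0.01 with 1 animal (median -0.17, 20 of 20 below 0) and from -0.71 to 0.02 in the pool (median -0.21, 18 of 20). In endoglin siRNA cells the arrays parted: 16 of 20 were above 0 with 1 animal (median 0.18) and 17 of 20 below 0 in the pool (median -0.13).

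In the means, 20 of 20 heavy chain names were below control siRNA cells in untreated cells (median -0.18; 49.5% of all genes were below 0), and 20 of 20 were higher in endoglin siRNA than in untreated cells (median 0.18; 58.6% of all genes were above 0). For 13 of the 20 that difference was above 0 in both RNA sources, as for 37.2% of all genes. These counts use the brightest probe of each name. A dimmer RT1-S3 probe, above background on all 4 arrays, went the other way in untreated cells. It read 0.23 and 0.21 there and 0.85 and 0.69 in endoglin siRNA cells (1 animal, then pool). With the mean over probes both counts were again 20 of 20. Without the endoglin siRNA array of 1 animal, 12 of 20 were higher than in untreated cells (median 0.03), and with the arrays scaled to equal spread 8 of 20 (median -0.03). With median centring 11 of 20 were below control siRNA cells in untreated cells.

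As processed here, none of the 20 passed the test (limma, adjusted p under 0.05). An unadjusted p under 0.05 was found for 6 of 20 in endoglin siRNA against control siRNA cells, 9 in untreated against control siRNA cells and 5 in endoglin siRNA against untreated cells, where 23.1%, 13.6% and 8.23% of all genes had one. Other processing did call some in endoglin siRNA against control siRNA cells. Without background correction 3 of 20 were called, where 4505 of all 25534 genes were. With the background fitted without disturbed spots 2 of 20 were called, where 4157 of all genes were. With the mean over probes 1 of 20 was called, where 1771 of all genes were. In untreated against control siRNA cells 1 of 20 was called without the filter on dim probes, where 357 of 35425 genes were. Calls with the RNA source as a replicate block are given below.

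The names with the largest differences of endoglin siRNA from untreated cells were RT1-T24-1, at 0.65 with 1 animal and 0.58 in the pools, and RT1-N3, at 0.60 and 0.29 (adjusted p = 0.554 and 0.319, limma). Against control siRNA cells the largest were RT1-N3 (0.26) and RT1-CE5 (-0.25) in endoglin siRNA cells and RT1-T24-1 (-0.42) and RT1-CE5 (-0.41) in untreated cells, with adjusted p of 0.0963, 0.0776, 0.331 and 0.0618 (limma).

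Of the other genes of peptide supply and loading, 12 of 14 were tested, and calreticulin (Calr), the chaperone that holds the heavy chain and B2m in the loading complex, was the one that passed. Against control siRNA cells its log2 ratio was -0.43 and -0.51 in untreated and -0.79 and -0.63 in endoglin siRNA cells (1 animal, then pool), below 0 on every array, and the endoglin siRNA values lay below the untreated ones. It fell against control siRNA cells both in endoglin siRNA cells (mean -0.71, SE 0.07, n = 2 arrays, adjusted p = 0.00426, limma) and in untreated cells (-0.47, SE 0.07, adjusted p = 0.0385), where leaving out either untreated array ended the call (adjusted p = 0.214 without 1 animal and 0.406 without the pool). Between endoglin siRNA and untreated cells none of the 12 passed, with 1 of 12 at an unadjusted p under 0.05 (8.23% of all genes). The largest values there were -0.24 for Calr and 0.18 for Thop1, a cytosolic peptidase (adjusted p = 0.57 and 0.698, limma). With median centring in place of loess the Calr ratio in endoglin siRNA cells was 0.48 (adjusted p = 0.523, limma), where the median of all genes was 0.32. The fall was not called with scaled arrays (-1.23, adjusted p = 0.436, limma). Under either setting 0 of all 25534 genes were called.

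These counts stand against 2073 of 25534 genes called between endoglin siRNA and control siRNA cells (8.12%), 181 between untreated and control siRNA cells (0.709%) and 22 between endoglin siRNA and untreated cells (0.0862%). With the scanner software's own log ratios, the same test called 0 genes in all 3 comparisons, with 7109, 3332 and 2779 genes at an unadjusted p under 0.05. Calr then had adjusted p = 0.0748 in endoglin siRNA and 0.348 in untreated cells.

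The constitutive 20S proteasome is the form that holds the catalytic subunits which Psmb8 and Psmb9 replace. Of 14 subunits 1 passed, where 8.12% of all genes did. It was Psmb1, which fell in endoglin siRNA against control siRNA cells (-0.29 and -0.34, mean -0.31, SE 0.06, adjusted p = 0.0252, limma). The list medians were -0.05 in endoglin siRNA and -0.01 in untreated cells and -0.04 for their difference. In untreated cells the largest ratios were -0.27 for Psmb7 and 0.25 for Psma6. Between endoglin siRNA and untreated cells they were -0.25 for Psmb1 and -0.22 for Psmb3, and none was called. An unadjusted p under 0.05 was found for 2 and 1 of the 14, where 13.6% and 8.23% of all genes had one. Among 5 tested class I-like genes, Fcgrt, whose product is the neonatal Fc receptor and pairs with B2m, fell in endoglin siRNA cells (-0.36 and -0.60, adjusted p = 0.0162) and read -0.40 and -0.56 in untreated cells (adjusted p = 0.0546). The Fcgrt difference between endoglin siRNA and untreated cells was 0.0008 (SE 0.11).

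Of 19 tested inducers of class I and interferon targets, 2 rose and 1 fell in endoglin siRNA against control siRNA cells (8.12% of all genes called). Nfkb1, an NF-kB subunit, was among those that rose (0.51 and 0.33, adjusted p = 0.0152, limma), while Stat2, which carries the type I interferon signal, fell (-0.36 and -0.39, adjusted p = 0.0499). In untreated cells the largest ratios were -0.36 for Rela (adjusted p = 0.0681), the main NF-kB activating subunit, and -0.35 for Stat2. None passed there or between endoglin siRNA and untreated cells. An unadjusted p under 0.05 was found for 4 and 2 of the 19, where 13.6% and 8.23% of all genes had one. Between endoglin siRNA and untreated cells the largest differences were 0.62 for the guanylate-binding protein Gbp2 and 0.60 for the chemokine Cxcl10. The list medians were 0.05, 0.0002 and 0.07 for endoglin siRNA against control siRNA, untreated against control siRNA and endoglin siRNA against untreated cells.

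Class II genes, which show peptides from outside the cell and belong to macrophages and other antigen-presenting cells, went the other way in untreated cells. Of 7 tested class II genes 4 rose against control siRNA cells: Ctss (1.19 and 1.17), RT1-Da (1.16 and 0.76), the invariant chain Cd74 (0.99 and 0.87) and RT1-Db1 (0.88 and 0.45), with adjusted p of 0.0059, 0.0174, 0.0059 and 0.0394 (limma). The list median was 0.67 in untreated cells, 0 passed in endoglin siRNA cells (median -0.0024, 0 at an unadjusted p under 0.05), and the difference of endoglin siRNA from untreated cells was -0.67, with Ctss (mean -1.04, SE 0.10, adjusted p = 0.0261, limma) and Cd74 (-0.95, SE 0.09, adjusted p = 0.0257) called lower. Class I medians in the same difference were 0.28 for the 6 genes, 0.18 for the heavy chains and 0.04 for the loading genes (0.02 over all genes). The 6 were chosen by these ratios, so their median carries no weight. The heavy chain median was 0.03 without the endoglin siRNA array of 1 animal and -0.03 with scaled arrays.

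Macrophage markers moved with the untreated cells too. Of 14 tested, 14 were above 0 in untreated against control siRNA cells (median 0.98), where 50.5% of all genes were. There 7 rose (0.709% of all genes called), led by Lyz2 (1.04 and 2.36), Aif1 (1.22 and 1.58), Tyrobp (0.91 and 1.78) and Laptm5 (0.76 and 1.66). In endoglin siRNA against control siRNA cells 11 were above 0 (median 0.13, 58.3% of all genes above 0) and 1 rose (8.12% of all genes called). Against untreated cells 13 were lower in endoglin siRNA cells (median -0.61, 41.4% of all genes lower). Of these 1, C1qa, was called (0.0862% of all genes). Their summed net Cy5 signal was 131536 and 57932 in untreated and 78930 and 15718 in endoglin siRNA cells (1 animal, then pool), and 4734 to 24113 in the control siRNA channel over the 4 arrays. These sums are not normalized between the dyes and give no ratio to control siRNA cells. The 13 stellate cell markers summed to 1014491 to 1233475 in Cy5 and 209721 to 239576 in Cy3. No array had all macrophage markers at background: 11 to 14 of the 14 were well above it in Cy3. Lymphocyte markers summed to 696 to 2835 in Cy5 over 11 genes, sinusoidal endothelial markers to 1078 to 7248 over 7 and hepatocyte markers to 912 to 2294 over 7. Albumin (Alb) was above background on the array of the untreated pool alone, and there in both dyes. The part of macrophages in the class I values was not tested.

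**Figure D4:**
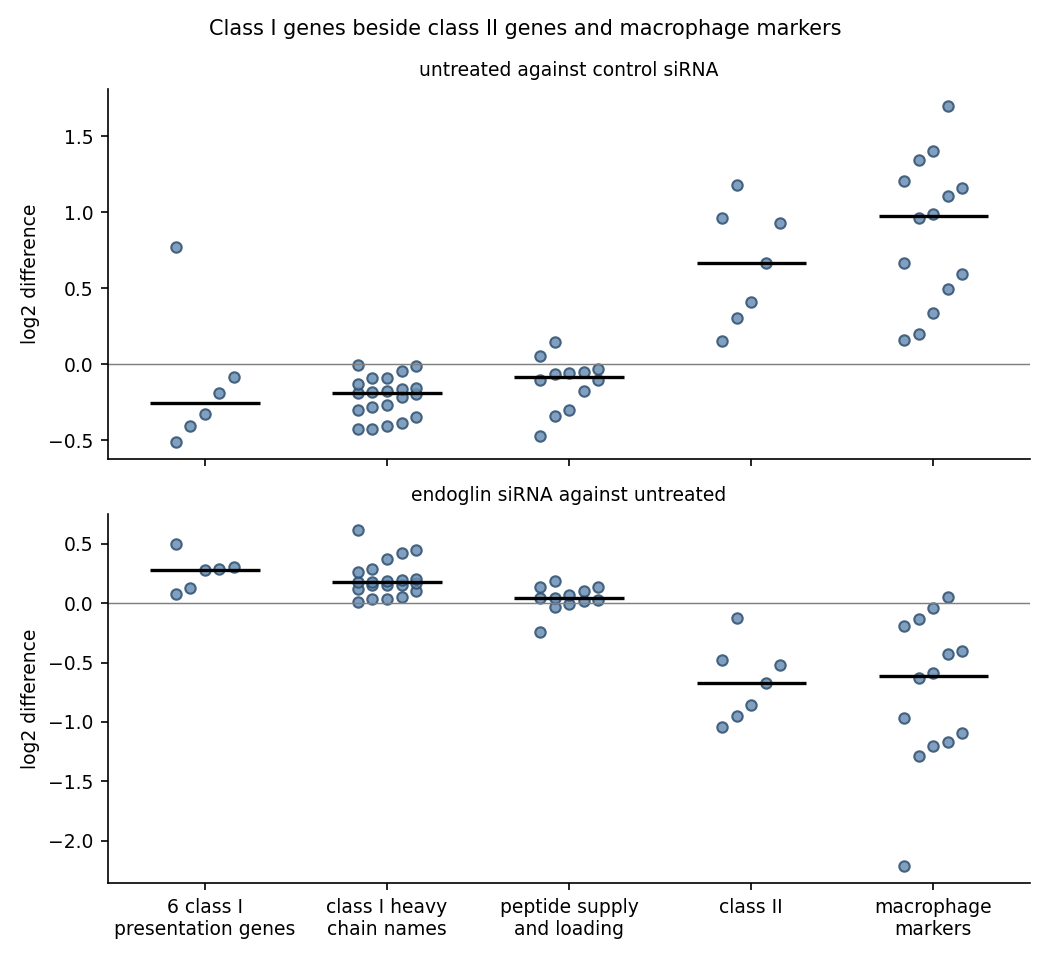
Mean log2 difference (vertical axis) of each gene in 5 groups, for untreated against control siRNA cells (upper panel) and endoglin siRNA against untreated cells (lower panel); points are genes and bars group medians. Class I groups have medians from -0.26 to -0.08 above and 0.04 to 0.28 below, class II genes and macrophage markers 0.67 and 0.98 above and -0.67 and -0.61 below; the heavy chain group here includes RT1-Ke4, and its lower median was -0.03 with scaled arrays.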

How the data were processed

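RNA of untreated or endoglin siRNA cells (Cy5) and of control siRNA cells (Cy3) was measured on 4 two-colour Agilent 4x44K rat arrays, all on 1 slide and in 1 scan. The authors extracted the deposited intensity values with version 9.5.1.1 of the scanner software Feature Extraction (file headers); the log ratios of the same files and of the deposited value table are on a log10 scale, per the file headers and a comparison of both sources. The sources used here give no probe sequences, genome build or siRNA sequence.

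Mean signals were background corrected by normexp (offset 50) and normalized within arrays by loess in limma 3.58.1 (R 4.3.3), without control and flagged spots. Spots of a probe were averaged. Kept probes exceeded background in either channel on 2 or more arrays (30021 of 41012; 29845 had a value on every array), and the brightest stood for each of 25534 genes. The 2 group means were tested with limma across all genes, with Benjamini-Hochberg adjustment at 0.05; the test was checked on simulated data. Names were updated with RefSeq (6597 by accession, 3241 by symbol, 2286 by synonym, 13410 unmatched). The number of arrays limits the precision.

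The members and lists were chosen with earlier results of these data known. Named genes are the 6 genes with every probe, endoglin, in each list those that passed (at most 4) or else the 2 with the largest ratio, and the 3 nearest genes of each of the 6; a few genes that this rule names are not reported here. Alternatives were other background corrections and normalizations, the scanner's log ratios, the authors' values, no dim filter, the mean over probes, a replicate block and leaving out each array.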

Additional observations from a re-analysis of the deposited data

Results flagged for a closer look

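For Psmb9 and 4 others of 39 genes both endoglin siRNA arrays lay above control siRNA cells and both untreated arrays below them. The 39 are the 6, the 21 tested RT1 names, RT1-Ke4 (Slc39a7) among them, and the 12 loading genes. Psmb9 and the rest of the 6 were chosen by these ratios and give the count no weight. The difference behind this pattern was not tested for Psmb9, and limma called none of the other 4. Of all 25534 genes 6.72% had this pattern, and 3.36% the opposite one, which 0 of the 39 had. The endoglin siRNA minus untreated log2 difference was 0.30 for Psmb9, 0.42 for RT1-M3, 0.38 for RT1-N1, 0.45 for RT1-N3 and 0.14 for Arts1 (Erap1, a peptide-trimming peptidase of the endoplasmic reticulum).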

How the results depend on the processing

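In endoglin siRNA against control siRNA cells the class I pathway genes called, 1 of 33 as reported, were 6 without background correction, 2 with the mean over probes, 5 with the background fitted without disturbed spots (added after seeing the data), 0 with the scanner's log ratios, median centring, scaling or the deposited table, and 1 to 5 with 1 array left out. In untreated cells, 1 as reported became 0 with those same 4, 2 without the dim filter and 0 to 7 with 1 array left out; between endoglin siRNA and untreated cells, 0 became 0 to 1 with 1 array left out. With the RNA source as a replicate block the 3 counts were 6, 8 and 1 (3964, 1045 and 270 over all genes), of which 3, 4 and 1 were among the 20 heavy chain names; whether the sources pair the arrays is not stated. The 33 genes include RT1-Ke4, the zinc transporter gene (Slc39a7). Without background correction, with the background fitted without disturbed spots and with the block it was called in endoglin siRNA against control siRNA cells. With the block it was also called in untreated cells. The scanner's log ratios, median centring, scaling and the deposited table called 0 of all 25534 genes in every comparison. The counts of 0 under them therefore say nothing about class I genes. Over all genes 2073 were called in endoglin siRNA against control siRNA cells as reported. There were 4505 without background correction, 4157 with the background fitted without disturbed spots and 1771 with the mean over probes. Counts over all genes also changed with each array left out, so those ranges are not particular to class I genes. The cause of the changes in these counts was not tested.

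The median over the 6 genes, -0.03 in endoglin siRNA cells, was -0.11 without background correction, -0.10 with scaling, -0.10 with the background fitted without disturbed spots and 0.99 with median centring, where all genes had a median of 0.32 (-0.05 to 0.00 with 1 array left out). In untreated cells, -0.26, it was -0.32 to -0.11 with 1 array left out. The difference of 0.28 was 0.22 with the scanner's log ratios or the deposited table, 1.22 with median centring (0.26 over all genes) and 0.17 to 0.33 with 1 array left out.

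Of the 13 alternatives 8 to 9 could move a gene's ratio to control siRNA cells and 10 to 11 the difference between the groups. Under these, single genes kept their sign except Tap1, Tap2, Tapbp and Psmb8 in endoglin siRNA and Psmb9 in untreated cells with median centring, Tap2 in endoglin siRNA cells without their pool, and, in the difference, Tapbp with scaling and Psmb8 without the untreated pool. B2m ranged from 0.78 to 2.54 in endoglin siRNA and from 0.41 to 1.11 in untreated cells, and its difference from 0.0012 to 1.43. All probes of the 6 genes were above background; the number of arrays limits the precision.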
